A study of Mus musculus with 12 samples.

Results

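Genes that mark the layers of the cerebral cortex were followed in the prefrontal cortex of mice after repeated cocaine. The set held 9 genes: Cux2, Rorb, Fezf2, Bcl11b, Etv1, Tle4, Foxp2, Tbr1 and Ctgf. They were chosen by name as markers of cortical layers, and all 9 of the 39221 gene symbols with a row of their own in the deposited tables were found at each time point. The mice were C57BL/6, aged 10 weeks, and received daily injections for 14 days of either saline (the control) or cocaine at 20 mg/kg. The bilateral prefrontal cortex was dissected after a further 2 h, 24 h or 7 d, giving 6 groups of 2 libraries with the tissue of 5 mice pooled in each library. The authors deposited 1 table per time point, with a single FPKM (a read level corrected for transcript length and library size) for each group, pooled over its 2 libraries. No spread between libraries can be computed from these values, so the comparisons below have no replicate check, no error and no p value, and the tables hold no read counts from which the depth behind a value could be taken.

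The cortex is built of layers of excitatory neurons that differ in birth date, shape and target. Neurons of the upper layers connect cortical areas, those of layer 5 project to the brainstem, spinal cord and striatum, and those of layer 6 project mainly to the thalamus. The identity of each layer is set during development by transcription factors that repress one another, and most of these factors stay expressed in the adult. Frontal areas of the mouse have a poorly developed layer 4. Cux2, a homeodomain factor, marks the upper layers, and Rorb, a nuclear receptor, marks layer 4. Fezf2 and Bcl11b, zinc finger factors that specify layer 5 neurons with targets below the cortex, and the ETS factor Etv1 mark layer 5. The T-box factor Tbr1, the corepressor Tle4 and the forkhead factor Foxp2 mark layer 6. Ctgf, a secreted matrix-associated protein, marks layer 6b and is also made by cells of blood vessels.

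Upstream sequence is shown for Fezf2 and Cux2, the layer 5 and the upper-layer transcription factor that lay furthest apart 7 d after cocaine. Each line gives the 250 bases before a RefSeq transcription start on the minus strand of GRCm38.p6, from chr14:12345866-12346115 for Fezf2 and from chr5:122047826-122048075 for the start of Cux2 whose upstream bases lie in no GENCODE M1 coding transcript. Capitals mark a match to the AP-1 motif TGANTCA, searched on both strands.
Fezf2: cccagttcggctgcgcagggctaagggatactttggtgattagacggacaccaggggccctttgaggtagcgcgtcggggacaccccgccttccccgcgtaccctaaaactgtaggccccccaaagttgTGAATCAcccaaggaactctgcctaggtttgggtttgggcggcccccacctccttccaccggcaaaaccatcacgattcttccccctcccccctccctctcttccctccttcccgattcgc
Cux2: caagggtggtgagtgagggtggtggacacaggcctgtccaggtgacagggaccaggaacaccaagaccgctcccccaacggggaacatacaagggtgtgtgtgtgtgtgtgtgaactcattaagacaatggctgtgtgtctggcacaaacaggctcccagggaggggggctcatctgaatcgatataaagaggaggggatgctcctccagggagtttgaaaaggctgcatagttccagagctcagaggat
The AP-1 match in Fezf2 lies 115 to 121 bases before the start, and 7.8% of all 32851 promoter windows of 300 bases held this motif, a window of Rorb among them. In the Cux2 stretch no match was found to the AP-1 motif, the cAMP response element core TGACG (20.8% of all windows), the full element TGACGTCA (1.8%), the EGR motif GCGTGGGCG (0.6%), the TEAD motif GGAATG (14.7%) or the CArG box (1.6%). RefSeq windows were found for 7 of the 9 genes, Foxp2 and Ctgf being the others. The Fezf2 stretch also bears on how that gene was measured. The locus that the tables name Fezf2 ended at 12345865 at 2 h and 24 h, just before this stretch, and at 12346698 at 7 d, 833 bases further, so that all 250 bases lay inside the locus at 7 d only. Saline and cocaine shared the same locus within each table.

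The loci, given on GRCm38 as they stood at 2 h and 24 h, were chr5:121858387-122055654 for Cux2, chr19:18930605-19111196 for Rorb, chr12:107910403-108003893 for Bcl11b and chr12:38779380-38871356 for Etv1. Tle4 lay at chr19:14448072-14598051, Foxp2 at chr6:14901349-15441977 and Tbr1 at chr2:61802930-61814126. At 7 d the locus of Etv1 ended at 38871537, that of Tle4 at 14598071 and that of Tbr1 at 61814127, and that of Bcl11b ran from 107910397 to 108003947, while those of Cux2, Rorb and Foxp2 were the same in all 3 tables. The loci of Cux2, Tle4 and Foxp2 also hold RefSeq genes known by number only (Gm52785 and Gm52786, Gm31441, and Gm2845), whose reads could not be told apart from theirs by strand.

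Tbr1 had the highest level of the 9 genes in every group, from 27.6 to 33.5 FPKM, and Cux2 the second highest, from 11.6 to 20.8 FPKM. Etv1 came next in every group, at 8.29 to 10.1 FPKM. Fezf2, Tle4 and Rorb followed, all between 4.86 and 7.18 FPKM. Below them were Bcl11b, at 3.03 to 4.29 FPKM, Ctgf, at 1.86 to 3.80 FPKM, and Foxp2, at 0.487 to 0.790 FPKM. This order was the same in all groups except 7 d cocaine, where Tle4 (6.04 FPKM) stood above Fezf2 (5.44 FPKM). Foxp2 had a mean FPKM under 1 at each time point and was therefore kept out of the counts, which rest on the other 8 genes. Of excitatory markers, Slc17a7, the vesicular glutamate transporter of cortical excitatory neurons, was at 466 to 532 FPKM.

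**Figure D1:**
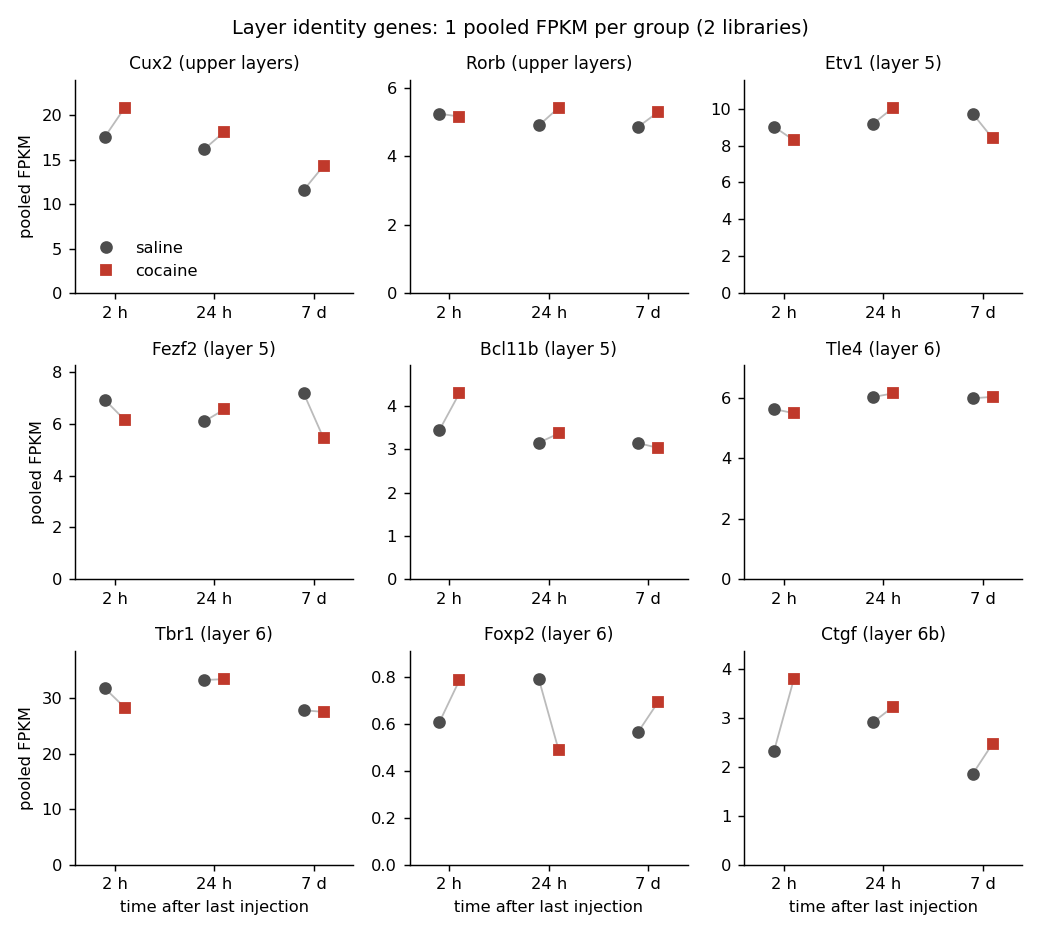
Pooled FPKM (y axis, from 0) of each of the 9 layer genes at 2 h, 24 h and 7 d after the last injection (x axis), with saline as grey circles and cocaine as red squares, 1 value per group of 2 libraries. Cux2 and Ctgf were higher in cocaine at all 3 time points, and Fezf2 was at 7.18 FPKM in saline and 5.44 FPKM in cocaine at 7 d.

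Each comparison asked whether a gene stood higher or lower in cocaine than in saline mice killed at the same time. A gene was counted as higher or lower where the log2 ratio of cocaine to saline, with 0.1 FPKM added to both values, was at least 0.25 in size. In bulk tissue, fewer cells of a layer and less RNA per cell cannot be told apart.

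At 2 h, 2 of the 8 genes were counted as higher in cocaine, Ctgf and Bcl11b, and none as lower. Over the 12914 genes that averaged 1 FPKM or more, 11.6% were higher and 7.74% lower by the same rule, and with 8 genes no more was read from a count of 2. Ctgf was at 2.32 FPKM in saline and 3.80 FPKM in cocaine, 1.61-fold higher (log2 ratio 0.69), and 98.1% of all genes had a lower ratio. Bcl11b was at 3.45 FPKM in saline and 4.29 FPKM in cocaine (log2 ratio 0.31). Cux2 lay just short of the limit, at 17.6 FPKM in saline and 20.8 FPKM in cocaine (log2 ratio 0.245). The other 4 genes of layers 5 and 6 that averaged 1 FPKM or more had ratios below 0 without reaching the limit. The log2 ratio was -0.17 for Fezf2 (6.92 FPKM in saline, 6.15 FPKM in cocaine), -0.17 for Tbr1 (31.8 and 28.3 FPKM) and -0.12 for Etv1 (9.02 and 8.29 FPKM). Tle4 (5.64 and 5.50 FPKM) and Rorb (5.24 and 5.16 FPKM) had log2 ratios of -0.04 and -0.02. The median log2 ratio of the 8 genes was -0.03, against 0.02 over all genes.

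At 24 h no layer gene was counted as higher or lower, against 6.76% of 13117 genes higher and 6.02% lower. All 8 genes had a log2 ratio above 0, as had 53.1% of all genes, and the ratios stayed between 0.01 and 0.16, although Tbr1 was at -0.002 once the ratio of the median gene was subtracted. The median was 0.12, against 0.01 over all genes. Cux2 had the largest of these ratios, 0.16, with 16.2 FPKM in saline and 18.1 FPKM in cocaine. Ctgf was at 2.92 FPKM in saline and 3.24 FPKM in cocaine, and Rorb at 4.90 and 5.42 FPKM, a log2 ratio of 0.14 for each. Tbr1, at 33.3 FPKM in saline and 33.5 FPKM in cocaine, had the smallest. Etv1 was at 9.19 and 10.1 FPKM, Fezf2 at 6.10 and 6.56 FPKM, Bcl11b at 3.15 and 3.37 FPKM and Tle4 at 6.04 and 6.16 FPKM in saline and cocaine. At this time the table also held a second, 801-base row named Fezf2, which begins at 12339105 on chromosome 14 of GRCm38, with 0.649 FPKM in saline and 0.670 FPKM in cocaine. The longer row was used.

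At 7 d, Ctgf and Cux2 were counted as higher in cocaine and Fezf2 as lower. Over 12972 genes, 9.07% were higher and 12.7% lower, and again no more was read from counts of 2 and 1 in 8. Fezf2 was at 7.18 FPKM in saline and 5.44 FPKM in cocaine (log2 ratio -0.39), and 5.0% of all genes had a lower ratio. Cux2 was at 11.6 FPKM in saline and 14.3 FPKM in cocaine (log2 ratio 0.30), and 94.0% of all genes had a lower ratio. Ctgf was at 1.86 FPKM in saline and 2.48 FPKM in cocaine (log2 ratio 0.40), with 96.8% of all genes below it. The other layer 5 genes were not past the limit. Etv1, the nearest, was at 9.72 FPKM in saline and 8.39 FPKM in cocaine (log2 ratio -0.21), and Bcl11b at 3.14 and 3.03 FPKM (-0.05). Tbr1 (27.9 and 27.6 FPKM) and Tle4 (5.99 and 6.04 FPKM) stood within 0.02 of equal on the log2 scale. Rorb was at 4.86 FPKM in saline and 5.29 FPKM in cocaine (log2 ratio 0.12). The median over the 8 genes was -0.002, against -0.01 over all genes.

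**Figure D2:**
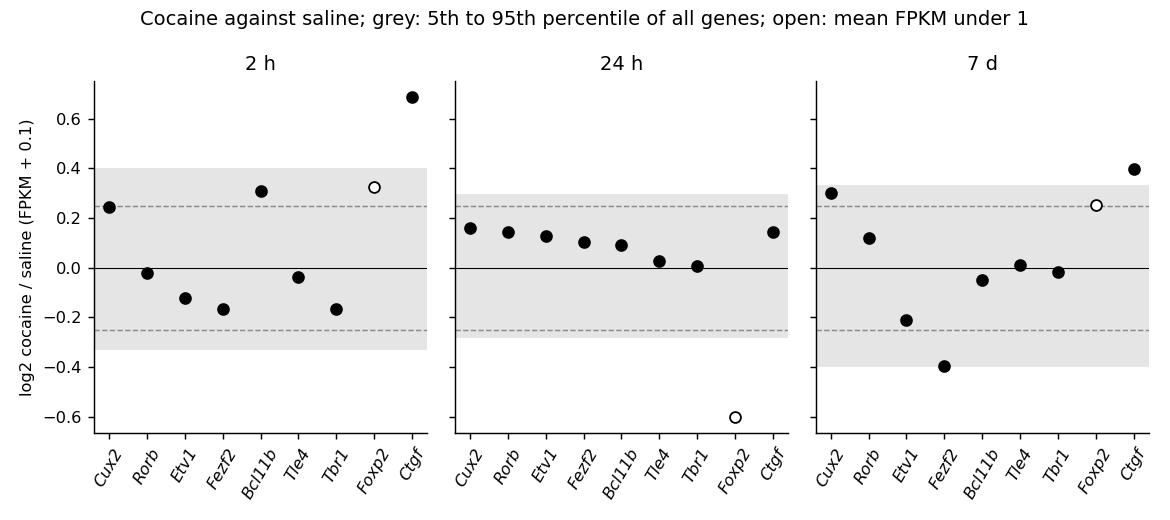
Log2 ratio of cocaine to saline FPKM, with 0.1 FPKM added (y axis), for each layer gene (x axis) at 2 h, 24 h and 7 d; 1 ratio of 2 pooled values per point, open where the mean FPKM was under 1. Grey bands span the 5th to 95th percentile of all genes and dashed lines mark 0.25 in either direction; Ctgf lies above the band at 2 h and 7 d, and Fezf2 at the lower edge of the band at 7 d.

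Foxp2 was the only layer gene whose ratio moved past 0.25 in both directions, and it did so at levels under 1 FPKM. Saline and cocaine were at 0.607 and 0.785 FPKM at 2 h (log2 ratio 0.32), at 0.790 and 0.487 FPKM at 24 h (-0.60), and at 0.566 and 0.693 FPKM at 7 d (0.25). The 0.25 limit was passed more often among weakly expressed genes. Without a minimum FPKM, 14.7% of genes were higher at 2 h and 12.2% lower at 24 h.

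The 3 saline groups offer a rough yardstick, although they differ in time and come from tables that were made separately. Over 12471 genes the median range of the saline values was 0.21 on the log2 scale. The range was 0.62 for Ctgf, from 1.86 to 2.92 FPKM, and 0.60 for Cux2, from 11.6 to 17.6 FPKM, each larger than in 94% or more of all genes. The cocaine-to-saline ratio of Cux2 stayed within its saline range at all 3 time points, and that of Ctgf was outside it at 2 h only. Fezf2 had a saline range of 0.23, from 6.10 to 7.18 FPKM, and its ratio of -0.39 at 7 d was larger, as was the case for 23.7% of all genes at that time. Bcl11b had a narrow saline range of 0.13, and its ratio at 2 h was larger, as for 24.8% of all genes. For Etv1 the ratio was larger than the saline range of 0.11 at each time point, being lower in cocaine at 2 h and 7 d and higher at 24 h. That range is narrow, since 18.5% of all genes had a smaller one. Rorb, with a saline range of 0.11 too, had a larger ratio at 24 h (0.14) and 7 d (0.12). At 24 h the ratio was larger than the saline range in 16.8% of all genes. The share of genes past it at all 3 time points was not computed. The cocaine values of Ctgf and Cux2 were above the saline values at each of the 3 time points, as in 19.1% of all genes.

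Levels of 2 genes within the same group can be set against each other without any scaling between groups. The ratio of Cux2 to Fezf2, an upper-layer to a layer 5 factor, was 2.54 in saline and 3.39 in cocaine at 2 h. It was 2.65 and 2.76 a day after the last dose, and 1.61 and 2.63 after a week. The 7 d saline group had the lowest of these ratios, and the 7 d cocaine group lay within the range of the 2 h and 24 h saline groups. The ratio of Cux2 to Etv1 was 1.95 in saline and 2.51 in cocaine at 2 h, against 1.76 and 1.80 at 24 h. At 7 d it was 1.19 and 1.71. With Rorb in place of Cux2, the ratio to Fezf2 was 0.757 and 0.839 at 2 h, against 0.803 and 0.827 at 24 h. At 7 d it was 0.677 and 0.973. Here the 7 d cocaine value stood above all 3 saline values. The ratio of Rorb to Etv1 was 0.581 and 0.623, 0.533 and 0.539, and 0.4998 and 0.631 at the same times. All 4 ratios were higher in cocaine at every time point. The 4 share their genes, and the Fezf2 locus was longer at 7 d. Against Bcl11b at 2 h the direction turned, since the ratio of Cux2 to Bcl11b was 5.10 in saline and 4.85 in cocaine and that of Rorb to Bcl11b 1.52 and 1.20. Against the layer 6 gene Tbr1, Cux2 stood at 0.552 in saline and 0.735 in cocaine at 2 h and at 0.415 and 0.519 at 7 d. None of these ratios was corrected for transcript length, with which the log2 ratio of cocaine to saline rose at 7 d, as described below. The transcripts of Cux2 (6763 nt) and Rorb (9293 nt) are longer than those of Fezf2 (2304 nt) and Etv1 (4307 nt).

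**Figure D3:**
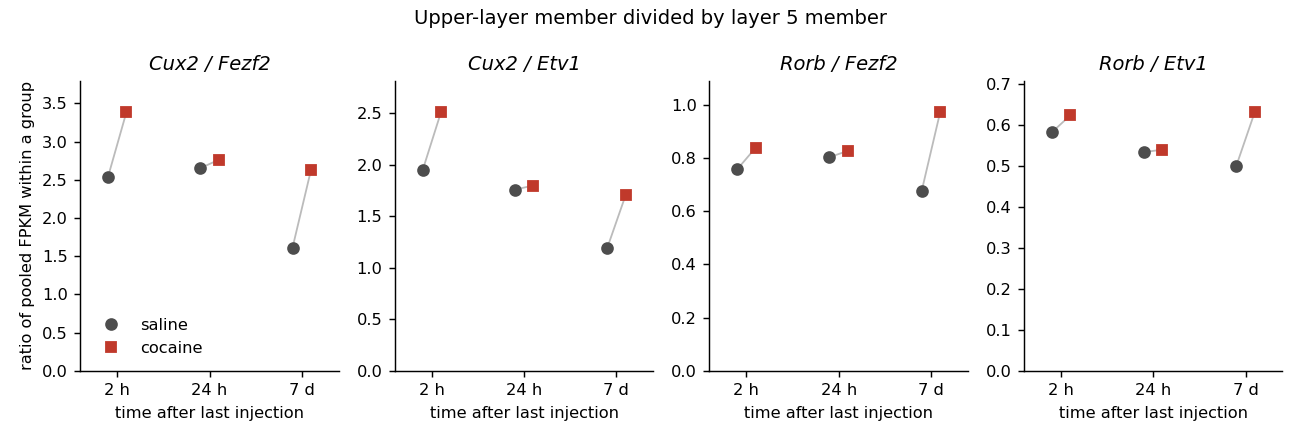
Ratio of the pooled FPKM of an upper-layer gene (Cux2 or Rorb) to that of a layer 5 gene (Fezf2 or Etv1) within each group (y axis, from 0) at 2 h, 24 h and 7 d (x axis), with saline as grey circles and cocaine as red squares. The distance between saline and cocaine was smallest at 24 h for each pair, and the ratio of Cux2 to Fezf2 was 1.61 in saline and 2.63 in cocaine at 7 d.

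At 7 d the log2 ratio was larger for genes with longer transcripts, which touches the layer genes because they differ in length. Genes were put in 20 groups by their longest protein-coding transcript, and the median log2 ratio at 7 d ran from -0.23 in the shortest group to 0.14 in the longest. At 2 h these medians were 0.01 and 0.08, and at 24 h -0.03 and 0.03. The transcripts of Rorb (9293 nt), Bcl11b (8111 nt) and Cux2 (6763 nt) were among the longest and those of Fezf2 (2304 nt) and Ctgf (2403 nt) the shortest of the layer genes. After the group median was subtracted, the 7 d log2 ratio was 0.17 for Cux2, -0.35 for Fezf2, 0.43 for Ctgf, -0.26 for Etv1, -0.19 for Bcl11b and -0.02 for Rorb. Cux2 was then under the limit and Etv1 past it, while Fezf2 and Ctgf kept their side. At 2 h the ratio of Bcl11b was 0.23 after this step, under the limit, and that of Ctgf 0.67. Over all genes with a length, 6.90% were then higher and 6.05% lower at 7 d.

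**Figure D4:**
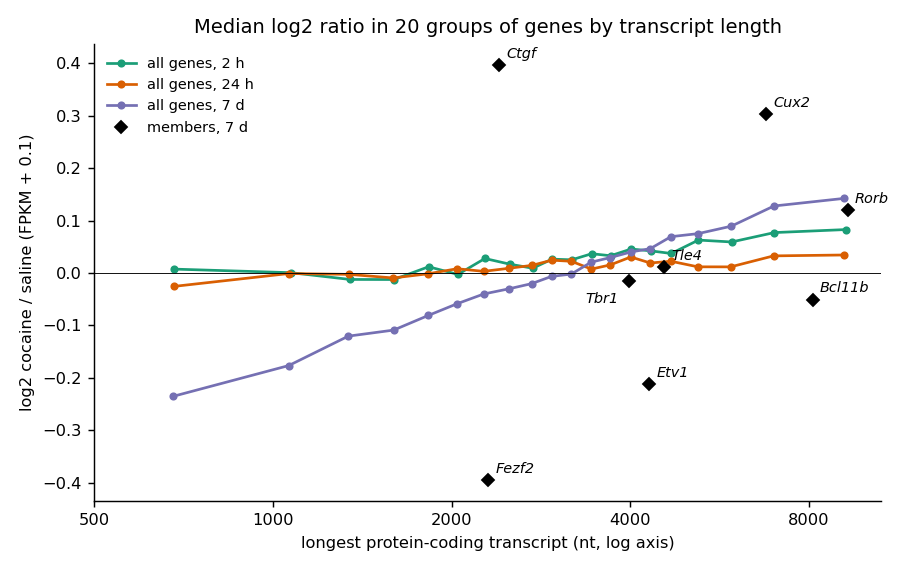
Median log2 ratio of cocaine to saline (y axis) in 20 groups of genes ordered by longest protein-coding transcript (x axis, nt, log scale), as lines for 2 h, 24 h and 7 d, with the 8 layer genes at 7 d as black diamonds. The 7 d line runs from -0.23 to 0.14, and Fezf2 (-0.39) and Ctgf (0.40), which have transcripts of like length, lie far on either side of it.

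Other genes known to differ between layers were read from 3 lists of markers. Of 22 upper-layer genes that averaged 1 FPKM or more, 2 were higher and 1 lower at 2 h, 3 higher and 1 lower at 24 h, and 2 higher and 2 lower at 7 d. Their median log2 ratios were 0.05, 0.13 and 0.13. Of all genes, 11.6%, 6.76% and 9.07% were higher at 2 h, 24 h and 7 d, and 7.74%, 6.02% and 12.7% lower. Wfs1, which encodes wolframin of the endoplasmic reticulum, and the POU factor gene Pou3f2 were higher at 2 h (log2 ratio 0.31 and 0.27), and Pvrl3, which encodes the adhesion protein nectin-3, was lower (-0.45). At 24 h Unc5d (0.33), Pou3f2 (0.26) and Plxnd1 (0.26), the first and last of which encode guidance receptors, were higher and Mdga1 (-0.53) was lower. At 7 d Mdga1 (0.46) and the potassium channel gene Kcnh5 (0.31) were higher, and Inhba (-0.34), an activin subunit gene, and Rspo1 (-0.27), a secreted WNT enhancer, were lower. Cux1, the paralogue of Cux2, was named after its values were seen. It was at 21.6 FPKM in saline and 24.8 FPKM in cocaine at 2 h and at 18.2 and 20.9 FPKM at 7 d. The log2 ratio was 0.20 at both of these times, under the limit. At 24 h Cux1 was at 23.06 FPKM in saline and 23.13 FPKM in cocaine, a log2 ratio of 0.004.

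Among further layer 5 markers, 5 of 15 were higher and 1 lower at 2 h, beside 11.6% and 7.74% of all genes. They were led by the repressor gene Bcl6 (log2 ratio 0.72) and the pseudokinase gene Trib2 (0.59), with the potassium channel gene Kcnn2 (0.32) the smallest of the 5 and Tox (-0.33) the one lower gene. At 24 h Trib2 (0.32) was higher and Ldb2 (-0.43) lower out of 16, beside 6.76% and 6.02% of all genes. At 7 d, 5 of 16 were lower and 1 higher. Tcerg1l (-0.38) and S100a10 (-0.36), which encodes a calcium-binding family protein that marks layer 5 neurons projecting within the forebrain, had the lowest ratios, Crym (-0.29) was the nearest to the limit of the 5, and Trib2 (0.26) was the higher gene. The medians were -0.003, 0.04 and -0.04. The 5 of 16 lower at 7 d stand beside 12.7% of all genes lower, and became 3 with the length trend removed, beside 6.05% of all genes. Among genes averaging 5 FPKM or more, 3 layer 5 markers were higher at 2 h and 3 lower at 7 d. Of all genes at that level, 8.11% were higher at 2 h and 12.07% lower at 7 d.

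Of the layer 6 and 6b markers, 5 of 20 were higher and 2 lower at 2 h, beside 11.6% and 7.74% of all genes. At 24 h 2 of 20 were higher and 4 lower, beside 6.76% and 6.02% of all genes. At 7 d 2 of 19 were higher and 2 lower, beside 9.07% and 12.7%. The medians of these markers were 0.06, -0.05 and 0.04. Nr4a2, a nuclear receptor gene that marks layer 6b and is also induced by neuronal activity, was at 1.44 FPKM in saline and 3.01 FPKM in cocaine at 2 h (log2 ratio 1.01). It was at 2.56 and 1.49 FPKM at 24 h (-0.74) and at 1.46 and 1.95 FPKM at 7 d (0.39). Osr1 was at 0.979 and 1.70 FPKM at 2 h (0.74) and 1.83 and 1.19 FPKM at 24 h (-0.58). Hs3st4 (-0.31) and the potassium channel subunit gene Kcnab1 (-0.25) were lower at 2 h. At 24 h the neurotensin receptor gene Ntsr1 (0.38), a marker of layer 6 cells that project to the thalamus, and Moxd1 (0.36) were higher. Ntsr1 was at 0.933 FPKM in saline and 1.24 FPKM in cocaine, and so passed the minimum through the cocaine group only. Moxd1 was at 1.65 and 2.14 FPKM. With 1 FPKM added in place of 0.1, neither was past the limit. At 7 d Nfia (0.35) was higher, and Rprm (-0.29) and Kcnab1 (-0.25) were lower. Whether the reads of these listed genes, Osr1 and Nfia among them, came from layer neurons or from other cells was not tested.

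**Figure D5:**
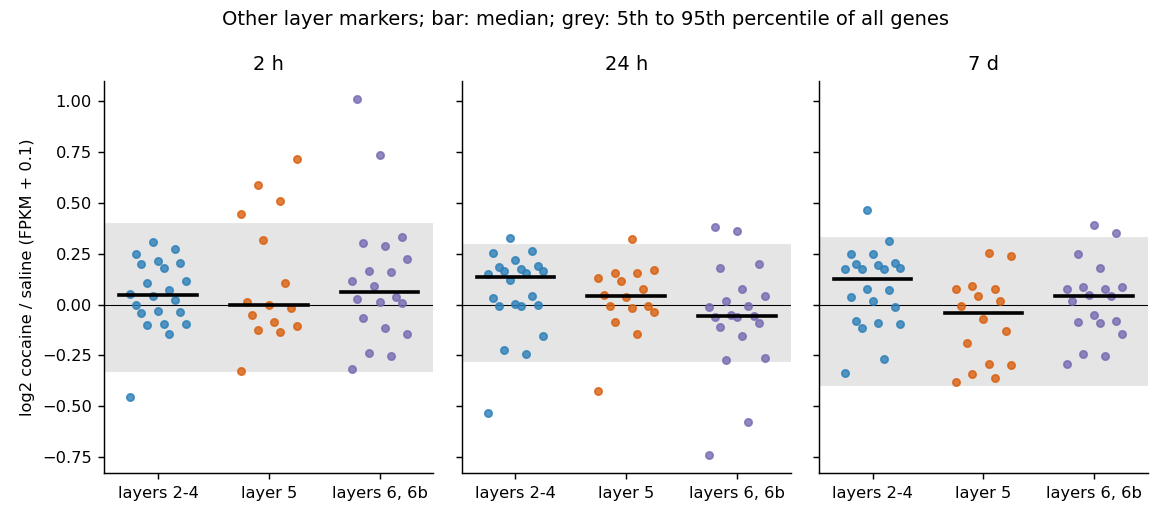
Log2 ratio of cocaine to saline FPKM, with 0.1 FPKM added (y axis), of further markers of layers 2 to 4, layer 5, and layers 6 and 6b (x axis) that averaged 1 FPKM or more; each point is a gene, bars are medians and grey bands span the 5th to 95th percentile of all genes. Medians lie between -0.05 and 0.13, and the highest point, Nr4a2 at 2 h, is at 1.01.

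Ctgf, which RefSeq names Ccn2, is not made by neurons alone, and its row covered chr10:24549441-24598683 of GRCm38, a locus that also holds the noncoding genes Gm15270 and Gm36089 and the pseudogene Gm6893; reads from overlapping genes could not be told apart here. Cyr61, its close relative in the CCN family, was at 1.28 FPKM in saline and 2.06 FPKM in cocaine at 2 h (log2 ratio 0.64), 1.58 and 2.04 FPKM at 24 h (0.35), and 1.24 and 2.25 FPKM at 7 d (0.81). YAP and SRF are transcription regulators that act on Ctgf. In a list of their target genes, 9 of 16 were higher and none lower at 2 h, beside 11.6% and 7.74% of all genes. At 24 h 4 were higher and none lower, beside 6.76% and 6.02% of all genes. At 7 d 8 were higher and 1 lower, beside 9.07% and 12.7%. The list was chosen with earlier results of these data known and holds Fos, Egr1 and Junb. Its counts are therefore no separate support for the Ctgf ratio. Fos (2.76) and Junb (2.43), both general activity genes, had the highest log2 ratios at 2 h, and Amotl2 (0.43) and F3 (0.27) the lowest of the 9. At 24 h the 4 were Fos (1.20), Egr1 (0.99), Junb (0.74) and Cyr61. At 7 d Fos (1.49) and Cyr61 were the highest and Axl (0.35) the lowest of the 8. The gene counted as lower at 7 d was Filip1l, whose row stood at 22136 FPKM in saline and 12832 FPKM in cocaine at that time and at 12274 and 10598 FPKM at 24 h, against 4.35 and 7.81 FPKM at 2 h, so that its values were not read as one measure across the tables. Vascular and meningeal markers were higher in 4 of 21 genes at 2 h and in 12 of 22 at 7 d, beside 11.6% and 9.07% of all genes. None was lower at either time, and 2 of 22 were lower at 24 h, beside 6.02% of all genes. The medians of these markers were 0.13, -0.09 and 0.28. Their summed level was 2040 to 2275 FPKM in saline groups and 2003 to 2329 FPKM in cocaine groups, with no marker at 0. Ptgds alone was at 1828 to 2030 FPKM in saline and 1772 to 2096 FPKM in cocaine, so the sum mostly followed that gene. The 4 at 2 h were the endothelial genes Vwf (0.36), Cdh5 (0.28) and Kdr (0.27) and the smooth muscle gene Tagln (0.33), and those lower at 24 h were Lum (-0.45) and Dcn (-0.27), which encode matrix proteoglycans. The collagen genes Col3a1 (0.53) and Col1a1 (0.51) had the highest ratios at 7 d, and the smooth muscle genes Tagln (0.28) and Myl9 (0.28) the lowest of the 12. The part of these cells in the Ctgf ratio was not tested.

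Bcl11b and Foxp2 are also expressed in striatal neurons. Of 9 striatal markers that averaged 1 FPKM or more, 3 were higher and 1 lower at 2 h, beside 11.6% and 7.74% of all genes. None was past the limit at 24 h. At 7 d 1 was higher and 2 lower, beside 9.07% and 12.7% of all genes. The medians of these markers were 0.17, 0.03 and 0.08. The higher genes at 2 h were Pde10a (0.43), Adora2a (0.38) and Pdyn (0.25), and Rgs9 (-0.42) was lower. Adora2a was near the minimum then, at 1.02 FPKM in saline and 1.35 FPKM in cocaine. Of the 7 striatal markers that averaged under 1 FPKM at 2 h, Ido1 (-0.99), Drd1a (-0.46), Gpr6 (-0.45) and Drd2 (-0.34) had lower ratios. Sh3rf2 (0.64) had a higher one. Without a minimum FPKM, 14.7% of all genes were higher and 14.01% lower at 2 h. At 7 d the adenosine receptor gene Adora2a (0.68) was higher, and Rgs9 (-0.37) and the substance P precursor gene Tac1 (-0.62) were lower. Adora2a was then at 0.805 FPKM in saline and 1.35 FPKM in cocaine, and so passed the minimum through the cocaine group only. The summed level was 159 to 172 FPKM in saline and 164 to 183 FPKM in cocaine. The dopamine receptor gene Drd2 was at 0.146 to 0.234 FPKM in all groups, and Isl1 was listed at 0 in both groups at 24 h and 7 d. The part of striatal tissue in the Bcl11b ratio at 2 h was not tested.

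By the same rule, 11.6%, 6.76% and 9.07% of all genes were higher at 2 h, 24 h and 7 d, and 7.74%, 6.02% and 12.7% lower. These shares stand beside each count of this paragraph. Of 12 markers of excitatory neurons, 3 were higher and 1 lower at 2 h, 1 higher at 24 h and 1 lower at 7 d. Their medians were 0.03, 0.03 and 0.04. At 2 h Emx1 (-0.53), a homeodomain factor gene of the dorsal forebrain, was lower, and Nptx1 (0.40), Neurod2 (0.32) and Baiap2 (0.28) were higher. Slc17a6 (0.30), a second vesicular glutamate transporter gene, was higher at 24 h, and Neurod6 (-0.41), a transcription factor gene of excitatory neurons, was lower at 7 d. Of 16 markers of inhibitory interneurons, which also express Bcl11b in part, 1 was higher at each time point and 1 was lower at 7 d, with medians of 0.03, 0.03 and -0.03. They were Dlx5 (0.39) at 2 h, Adarb2 (0.26) at 24 h, and Htr3a (0.36) and Dlx6 (-0.33) at 7 d. Astrocyte markers were higher in 2 of 10 genes at 2 h, lower in 2 of 10 at 24 h and higher in 6 of 11 at 7 d, with medians of 0.16, -0.15 and 0.28. The connexin gene Gjb6 (0.45) and Fgfr3 (0.28) were higher at 2 h, Gfap (-0.35) and the water channel gene Aqp4 (-0.31) were lower at 24 h, and at 7 d Fgfr3 (0.42) and Slc1a2 (0.39) had the highest and Gfap (0.29) and Gja1 (0.28) the lowest ratios of the 6. Oligodendrocyte markers were lower in 3 of 12 at 24 h (among them Pdgfra, -0.31, and the myelin gene Mbp, -0.30) and higher in 1 of 12 at 7 d (Pdgfra, 0.29). Among microglial markers Tmem119 (0.35) was higher at 2 h, and Itgam (0.29) and Cx3cr1 (0.26) at 7 d, out of 10. Markers of olfactory bulb were past the minimum FPKM in 3 of 12 genes only, with Calb2 (0.29) higher at 2 h and Fabp7 (-0.44) and Islr (-0.28) lower at 24 h. The other 9 were at 0.545 FPKM or less in every group. The ratios of Calb2, Fabp7 and Islr were therefore not taken as a measure of olfactory tissue. Of the choroid plexus markers only Ttr was past the minimum FPKM, with log2 ratios of -1.83, -0.66 and 4.11 at 2 h, 24 h and 7 d. In saline and cocaine it was at 1.90 and 0.461 FPKM at 2 h and at 1.80 and 1.10 FPKM at 24 h. At 7 d it was at 0.284 and 6.54 FPKM. At 2 h and 7 d it thus passed the minimum through 1 group only. Without a minimum FPKM, 2 choroid plexus markers were higher and 4 lower at 7 d, beside 13.94% and 16.16% of all genes. What part a different share of these cells had in the layer genes was not tested.

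For genes whose 6 pooled values spanned at least 0.5 on the log2 scale, the most similar patterns were sought among the 2606 other genes with such a span. Genes much like Cux2 were Foxk1 and Tenc1 (Pearson's r = 0.994 for each) over the 6 values. Foxk1, a forkhead factor gene, was at 6.96 and 8.21 FPKM in saline and cocaine at 2 h, 6.18 and 7.00 FPKM at 24 h and then 4.73 and 5.80 FPKM at 7 d, so that it too was lowest at 7 d and higher in cocaine each time. Ctgf was most like Elmsan1 (0.995), Fam129b (0.991) and Furin (0.989). Furin, a proprotein convertase gene, was at 5.04 and 7.41 FPKM at 2 h, 5.55 and 6.47 FPKM at 24 h, and 4.04 and 5.21 FPKM at 7 d. With so few values such likeness is common, since 117 genes reached r = 0.95 with Cux2 and 69 with Ctgf, and the 6 values share 3 tables that were scaled separately.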

How the data were processed

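RNA from pooled mouse prefrontal cortex was sequenced in 12 libraries. The authors trimmed reads, aligned them with TopHat2 (2.0.12 in the submitters' processing notes), retained those mapped uniquely and compared groups with Cuffdiff of Cufflinks (2.2.1), run on both groups of a time point. The authors deposited FPKM values, 1 per group and locus, pooled over its 2 libraries, with fold changes, test statistics, p and q values of their own comparison, which were not used. The library kit does not mark strand. The tables hold no counts, so no interval was computed.

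The columns hold saline first and cocaine second. The files name them C_2H and 2H, and the like; the order follows the headings of the supplementary tables, whose values matched within 2% for 373 of 451 genes at 2 h, 13 of 14 at 24 h and 478 of 519 at 7 d, and for none in the swapped order. The methods name mm9 and the processing notes GRCm38. Loci overlapped the RefSeq gene of the same name on GRCm38 in 99.8% or more of genes, against 15.6% on NCBIM37, so GRCm38 positions are given.

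Rows naming 1 gene were used, and the longest locus where a symbol stood on several. Log2 ratios were taken with a pseudocount of 0.1 FPKM, which understates ratios of low genes, over genes averaging 1 FPKM or more. Transcript lengths came from GENCODE M1 (85.7%, 84.9% and 85.1% of genes at 2 h, 24 h and 7 d). Computation used pandas 2.3.3, numpy 2.4.6 and matplotlib 3.10.9 under Python 3.11.15, and the ratio and length steps were tested on simulated data. The members, marker lists and limits were chosen with earlier results of these data known. Named marker genes were those past 0.25, or the 2 highest and 2 lowest of these where over 5 passed, and for Cux2 and Ctgf, whose 6 values spanned at least 0.5, the 3 genes of highest correlation. Some genes that this rule selects are not reported here. Slc17a7, Cux1, Drd2 and Isl1 and both upstream stretches were chosen after values were seen. Per-sample columns that were left out numbered 0.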

Additional observations from a re-analysis of the deposited data

Results flagged for a closer look

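Some marker genes passed 0.25 on the log2 scale in opposite directions at 2 time points. With 1 pooled value per group, these differences were not tested. Among genes in the lists of layer markers, Nr4a2 had log2 ratios of 1.01 at 2 h, -0.74 at 24 h and 0.39 at 7 d. Osr1 had 0.74 at 2 h and -0.58 at 24 h, and Mdga1 -0.53 at 24 h and 0.46 at 7 d. In saline, Nr4a2 was at 1.44, 2.56 and 1.46 FPKM at 2 h, 24 h and 7 d, so that the 24 h saline group stood above the others. Among markers of other cells, Ttr had log2 ratios of -1.83 at 2 h, -0.66 at 24 h and 4.11 at 7 d. It was under 1 FPKM in cocaine at 2 h and in saline at 7 d. Gfap had -0.35 at 24 h and 0.29 at 7 d, Pdgfra -0.31 and 0.29 at the same times, and Filip1l 0.83 at 2 h and -0.79 at 7 d. The Filip1l row stood at 4.35 and 7.81 FPKM in saline and cocaine at 2 h and at 22136 and 12832 FPKM at 7 d, so that its turn in sign was not read as a change of one transcript. None of the 8 layer genes that averaged 1 FPKM or more did so.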

How the results depend on the processing

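With 1 pooled value per group there is no spread between libraries, so no replicate could be left out. No paired analysis was possible because the tables hold pooled columns that carry no replicate number. The count of layer genes higher at 2 h, 2 as reported, was 0 with a mean FPKM of at least 5, 1 with a limit of 0.5 and 1 with the length trend removed. Of all genes, 8.11%, 3.16% and 8.37% were higher under these settings. The count higher at 7 d, also 2, was 1, 0 and 1 under the same settings, beside 5.17%, 1.87% and 6.90% of all genes. The count lower at 7 d, 1 as reported, was 0 with a limit of 0.5 and 2 with the length trend removed. Of all genes, 2.91% and 6.05% were lower under these 2 settings. Without a minimum FPKM the count lower at 24 h was 1 rather than 0, that gene being Foxp2, beside 12.22% of all genes. Foxp2 was then also added to the genes higher at 2 h (log2 ratio 0.32) and at 7 d (0.25), beside 14.7% and 13.94% of all genes. Fewer genes tested explain the first setting, since Ctgf and Bcl11b lie under 5 FPKM. Both pseudocounts (0 and 1), centring on the median gene and the choice of locus kept every such count. Of the recomputed log2 ratios of the 8 layer genes, 179 kept their side of the limit, 6 came under it and 1 passed it (Etv1 at 7 d with the length trend removed), and none reversed past the limit. Under the limit, Tbr1 at 24 h, Rorb at 7 d and Tle4 at 7 d turned to -0.02, -0.02 and -0.06 with the length trend removed. The median of the choroid plexus markers turned to 0.16 at 2 h and -0.15 at 7 d without a minimum FPKM, where more genes than Ttr enter.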
